A study of Homo sapiens with 6 samples.

Results

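The 10 genes described here encode proteins that modify the Notch receptor, limit its activity or carry its signal in the nucleus: *LFNG*, *MFNG*, *RFNG*, *POFUT1*, *POGLUT1*, *NUMB*, *NUMBL*, *RBPJ*, *MAML1* and *DTX2*. They were listed by function and found in the tables by their current symbols, a rule that uses no measured value. Earlier results of these data were known when the genes were chosen. They are 10 of the 58884 genes in the count tables, and all 10 passed the filter on low counts that left 15001 genes for testing. RNA was sequenced from HSC-4, an established human oral squamous cell carcinoma line, to learn how the cells respond when Notch signaling is blocked. DAPT blocks γ-secretase, a membrane protease whose cut frees the intracellular domain of Notch. The treated group received 50 μM DAPT for 24 h (3 libraries), and the control group received DMSO vehicle for the same time according to the methods of the study (3 libraries). The control columns carry the letters GM without a key, and vehicle and DAPT cannot be told apart if these cultures had only growth medium. All 6 libraries come from 1 cell line, and the labels do not say whether the replicates were separate cultures, so the p-values measure the spread between these libraries.

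Notch receptors carry sugars on the repeats of their extracellular domain. POFUT1 adds fucose and POGLUT1 adds glucose in the endoplasmic reticulum, and the Fringe enzymes LFNG, MFNG and RFNG extend the fucose in the Golgi, which changes the ligands that a receptor answers to. NUMB and NUMBL are endocytic adaptors known as Notch antagonists, and DTX2 is a ubiquitin ligase of the Deltex family that binds the intracellular part of the receptor. In the nucleus the released intracellular domain binds the DNA-binding protein RBPJ, and MAML1 joins this pair and brings in histone acetyltransferases, while without the intracellular domain RBPJ sits with corepressors. In squamous epithelia Notch signaling is known for its part in differentiation.

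The DNA word bound by RBPJ is TGGGAA. Promoter windows from RefSeq (GRCh38.p14, from 250 bases before to 50 bases after the start site) were found for 9 of the 10 genes, with *MFNG* lacking an entry, and were searched on both strands for TGGGAA and for GTGGGAA, which contains it. TGGGAA was present in 3 of the 9, *LFNG*, *POGLUT1* and *DTX2*, against 24% of all 35116 windows of this length. GTGGGAA was in 0 of the 9 and in 6.25% of all windows. For each gene the first window listed was used, while the shares over all windows count every window. The sequences before the start are shown 5′ to 3′ on the plus strand for the pair of genes with the word well before their start, for *MAML1*, the only gene of the 10 that passed the test below, and for *HES1*, a Notch target gene with the word at bases -84 and -70. Capitals mark TGGGAA or its reverse complement TTCCCA.
POGLUT1: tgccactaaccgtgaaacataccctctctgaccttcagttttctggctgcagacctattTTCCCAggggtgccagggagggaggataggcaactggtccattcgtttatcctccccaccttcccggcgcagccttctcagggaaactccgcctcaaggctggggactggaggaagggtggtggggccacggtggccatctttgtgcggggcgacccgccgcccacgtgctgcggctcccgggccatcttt
DTX2: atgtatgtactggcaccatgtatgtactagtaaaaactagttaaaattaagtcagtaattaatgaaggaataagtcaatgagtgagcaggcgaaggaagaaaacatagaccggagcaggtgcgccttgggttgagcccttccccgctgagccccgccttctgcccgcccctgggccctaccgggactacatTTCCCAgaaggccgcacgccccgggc
MAML1: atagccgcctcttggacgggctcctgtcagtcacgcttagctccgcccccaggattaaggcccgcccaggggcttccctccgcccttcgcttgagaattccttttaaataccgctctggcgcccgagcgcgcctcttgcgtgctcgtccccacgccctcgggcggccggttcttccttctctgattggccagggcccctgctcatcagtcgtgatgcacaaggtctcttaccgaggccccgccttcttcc
HES1: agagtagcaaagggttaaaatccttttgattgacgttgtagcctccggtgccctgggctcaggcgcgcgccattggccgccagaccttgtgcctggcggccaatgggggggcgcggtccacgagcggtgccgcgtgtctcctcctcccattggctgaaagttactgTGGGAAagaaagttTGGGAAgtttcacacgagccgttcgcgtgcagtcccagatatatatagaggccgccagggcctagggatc
The stretches lie at chr3:119468713-119468962 (*POGLUT1*), chr7:76461459-76461675 (*DTX2*), chr5:179732572-179732821 (*MAML1*) and chr3:194135898-194136147 (*HES1*). That of *DTX2* ends where the exons of the count tables begin. The word starts at base -191 of *POGLUT1* and base -59 of *DTX2*, and at base -5 of *LFNG*, where it runs over the start site. Both target genes with the word, *HES1* and *HES4* of 4 with an entry, carry it on the strand of the gene, and the 3 modulators carry it on the other strand. This difference in strand was not set against all windows and was not tested. The windows of *HES1* and *HES4* also hold GTGGGAA. A match describes these letters only, and some of the genes have further start sites.

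Library totals ranged from 12276313 to 16317672 counts. The target genes *HES1*, *HES2*, *HES4*, *HEY1* and *NRARP* all fell, by log2 fold changes of -0.77 to -2.45. The 8 markers of squamous epithelium summed to 5179 to 5357 CPM in the controls and 3390 to 3538 CPM with DAPT (CPM: read counts per 1000000 counts of the library, after TMM scaling). Of these markers, 5 fell (*KRT5*, *KRT6A*, *TP63*, *SFN* and *KRT14*), *CDH1* and *EPCAM* rose, and *DSG3* was not called. *KRT5* lay between 2635 and 2757 CPM in the controls and between 1276 and 1362 CPM with DAPT, and *KRT14* was at most 3.54 CPM. Among the markers of leukocytes and endothelium, *PTPRC*, *CD3E*, *LYZ* and *PECAM1* were at 0 to 0.26 CPM and *VWF* at 0.585 to 1.31 CPM. *CD14* was at 10.4 to 12.8 CPM in the controls and fell to 8.78 to 10.3 CPM with DAPT (adjusted p = 0.0443), and *CDH5*, at most 0.506 CPM in the controls, rose to between 1.39 and 2.34 CPM (adjusted p = 4.93e-05). Control replicate 1 stood apart from the others. Its 4 fibroblast markers summed to 525 CPM against 48.8 to 56.5 CPM in the other 5 libraries, with *COL1A2* at 215 CPM against at most 2.02 CPM. Its genes in the highest quartile of GC content were also lower than in the other controls, with a median log2 deviation from the mean of the controls of -0.107. The part of these differences in the results was not tested, and values without this library are given beside the results that change.

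DAPT changed the modulators and cofactors little. *MAML1* rose, by a log2 fold change of 0.17 (1.13-fold), and the other 9 genes did not pass the test at an adjusted p-value under 0.05 (quasi-likelihood test of edgeR, adjusted by Benjamini-Hochberg over all tested genes). Thus 10% of these genes were called against 35.2% of all tested genes, with 1 higher gene (background 17.2%) and 0 lower genes (background 18%). At an unadjusted p under 0.05, 2 were higher (*MAML1* and *RBPJ*) and 1 was lower (*DTX2*), with edgeR as with DESeq2. Over all tested genes this share was 44.4% with edgeR and 36.7% with DESeq2. Among all called genes 48.7% were higher, or 61.5% when scaled by library size alone. None of the 10 changed 2-fold, and the log2 fold changes ran from -0.23 for *MFNG* to 0.18 for *RFNG*, with a median of 0.08 against 0.01 over all tested genes. The 3 libraries of each group did not overlap for 5 of the 10 genes, *POFUT1*, *POGLUT1*, *NUMB*, *RBPJ* and *MAML1*, with DAPT higher in each, and 46.3% of all tested genes had groups without overlap. Without control replicate 1, 3 genes were called, *MAML1*, *RBPJ* and *DTX2*, against 37.1% of all genes tested in that setting.

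**Figure D1:**
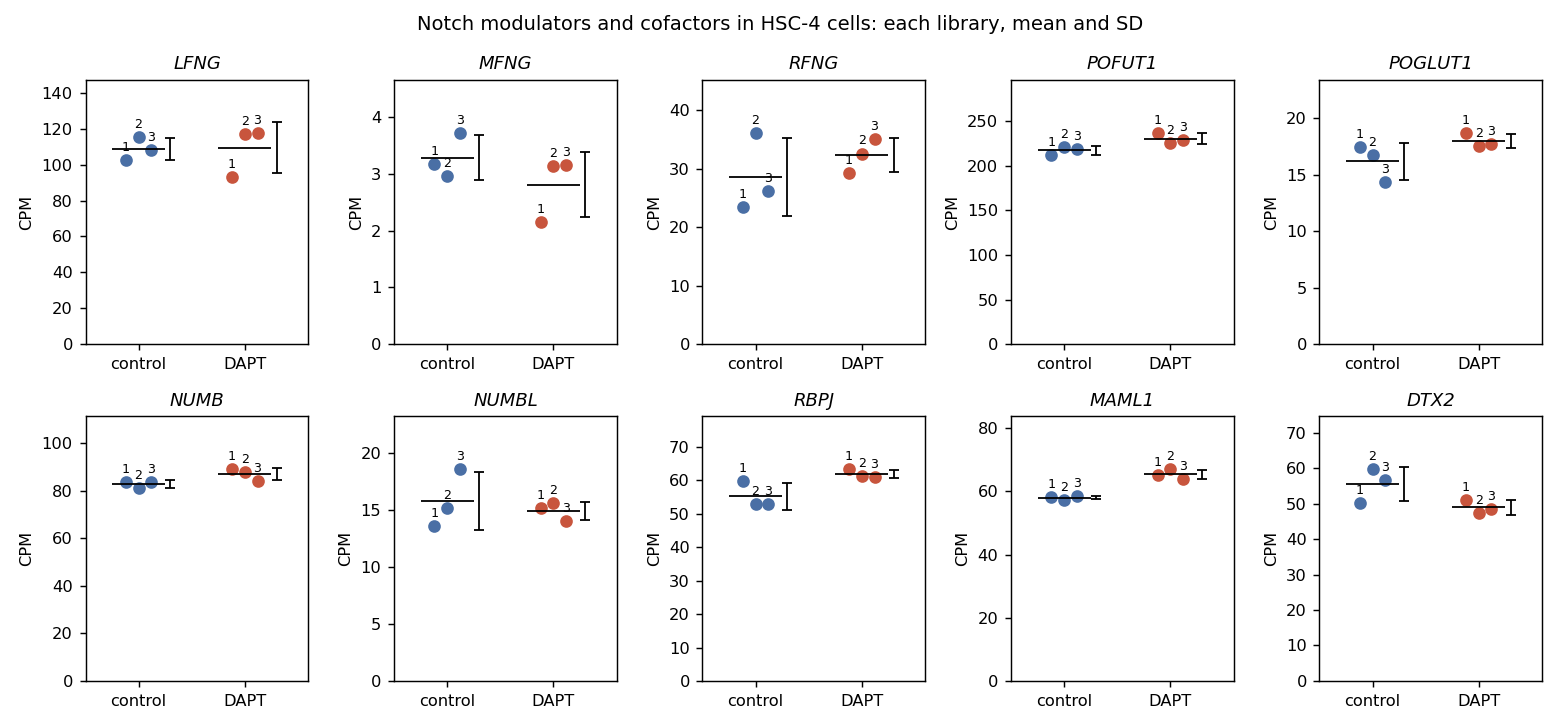
TMM-normalized CPM (linear axes from 0) of the 10 genes in each control and DAPT library of HSC-4 cells, numbered by replicate, with the group mean (line) and SD (bar, n = 3). The groups are apart for *MAML1*, with controls at 57.4 to 58.5 CPM and DAPT libraries at 64.0 to 67.0 CPM, and overlap for *LFNG*, *MFNG*, *RFNG*, *NUMBL* and *DTX2*.

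Gene positions below are those of the count tables (GRCh38, with the first exon base and the last). Among the Fringe enzymes, *LFNG* was the most abundant. *LFNG* (ENSG00000106003, chromosome 7, 2512529 to 2529177) had 102.5, 115.1 and 108.3 CPM in the controls and 92.9, 117.2 and 117.8 CPM with DAPT. The groups overlapped, and DAPT replicate 1 held the lowest value of all 6 libraries. The log2 fold change was 0.01 (95% confidence interval -0.17 to 0.19, SE 0.083, adjusted p = 0.957). An interval of this width leaves room for a change between 0.887-fold and 1.14-fold.

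*MFNG* (ENSG00000100060, chromosome 22, 37469063 to 37486401), the Fringe gene with the fewest reads, rested on 33 to 51 counts per library. It had 3.18, 2.96 and 3.73 CPM in the controls and 2.14, 3.14 and 3.15 CPM with DAPT. Only DAPT replicate 1 lay below the controls. The log2 fold change of -0.23 had the widest interval of the 10 genes (-0.65 to 0.19, adjusted p = 0.408), and without DAPT replicate 1 it was -0.0552.

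*RFNG* (ENSG00000169733, chromosome 17, 82047902 to 82051831) had 23.5, 36.2 and 26.2 CPM in the controls and 29.3, 32.6 and 35.1 CPM with DAPT. Control replicate 2 was the highest of all 6 libraries, and the other controls were below every DAPT library. *RFNG* had a log2 fold change of 0.18 (interval -0.19 to 0.54, adjusted p = 0.432). Without control replicate 2 it was 0.38 (adjusted p = 0.00255), and without control replicate 1 it was 0.04 (adjusted p = 0.842), so the call depended on which control was left out. Exons of *GPS1* on the opposite strand cover 21.6% of the exon bases of *RFNG*. Reads were counted by strand. In 137 pairs of genes, the exons of an inner gene lay wholly within opposite-strand exons of an expressed outer gene. The median read density of the inner gene was 1.92% of that of the outer gene, which includes any true expression of the inner gene. The part of *GPS1* in the counts of *RFNG* was not tested.

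The enzymes that add the first sugar were measured at very different levels. *POFUT1* (ENSG00000101346, chromosome 20, 32207880 to 32238658) had 211.7, 221.6 and 218.9 CPM in the controls and 237.2, 225.3 and 228.8 CPM with DAPT. Every DAPT library was above every control, by a small margin. This was a log2 fold change of 0.08 (interval -0.015 to 0.18, SE 0.048, adjusted p = 0.18).

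*POGLUT1* (ENSG00000163389, chromosome 3, 119468963 to 119494708) had 17.4, 16.8 and 14.3 CPM in the controls and 18.7, 17.6 and 17.7 CPM with DAPT. The groups touched without overlapping, and control replicate 3 was lowest. *POGLUT1* had a log2 fold change of 0.15 (interval -0.05 to 0.34, adjusted p = 0.235), and without control replicate 3 it was 0.07.

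The pair of Numb adaptors did not pass the test. *NUMB* (ENSG00000133961, chromosome 14, 73275107 to 73458617) had 83.8, 81.1 and 83.7 CPM in the controls and 89.1, 88.0 and 84.1 CPM with DAPT, with DAPT replicate 3 just above the controls. Its log2 fold change was 0.07 (interval -0.04 to 0.18, adjusted p = 0.309). *NUMBL* (ENSG00000105245, chromosome 19, 40665905 to 40690972) had 13.6, 15.2 and 18.6 CPM in the controls and 15.1, 15.6 and 14.1 CPM with DAPT. The DAPT libraries lay inside the range of the controls. Its log2 fold change was -0.07 (interval -0.29 to 0.16, adjusted p = 0.67), and it was 0.05 without control replicate 3 and -0.17 without control replicate 1.

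*MAML1* and *RBPJ*, the cofactors of the Notch intracellular domain in the nucleus, were both higher in every DAPT library than in every control. *MAML1* (ENSG00000161021, chromosome 5, 179732822 to 179777283) had 58.2, 57.4 and 58.5 CPM in the controls and 65.2, 67.0 and 64.0 CPM with DAPT. The means were 58.0 ± 0.556 and 65.4 ± 1.5 CPM (SD, n = 3 each). *MAML1* thus had the smallest relative spread between controls of the 10 genes. The log2 fold change was 0.17 (interval 0.05 to 0.29, SE 0.057, adjusted p = 0.0228).

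The size of the *MAML1* change moved little across the 15 alternative settings, from 0.16 to 0.22, while its call held in 10 of them. The adjusted p was 0.0917 without control replicate 2, 0.0711 without control replicate 3, 0.0508 without DAPT replicate 1 and 0.106 without DAPT replicate 2. With DESeq2 on all 6 libraries it was 0.0674. The call remained without control replicate 1 (0.18, adjusted p = 0.0181).

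*RBPJ* (ENSG00000168214, chromosome 4, 26163455 to 26435131) had 59.9, 52.9 and 53.1 CPM in the controls and 63.3, 61.4 and 61.0 CPM with DAPT. Control replicate 1, the library with the fibroblast transcripts, was nearest to the DAPT libraries. The log2 fold change was 0.16 (interval 0.03 to 0.29, SE 0.063), which just missed the threshold (adjusted p = 0.0522). Without control replicate 1 it was 0.23 (adjusted p = 0.0036).

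*DTX2* (ENSG00000091073, chromosome 7, 76461676 to 76505995) had 50.2, 59.7 and 56.7 CPM in the controls and 51.2, 47.3 and 48.4 CPM with DAPT. Control replicate 1 lay among the DAPT libraries, and the other controls were above all of them. This gave a log2 fold change of -0.18 (interval -0.32 to -0.03, SE 0.07, adjusted p = 0.0513). Without control replicate 1 it was -0.25 (adjusted p = 0.00254). Transcripts of *DTX2* have a GC content of 62.2% and those of *RBPJ* of 36.8%. With an offset for GC content and length, chosen after seeing the data, the log2 fold change was -0.09 for *DTX2* (adjusted p = 0.221) and 0.10 for *RBPJ* (adjusted p = 0.148), and that of *MAML1* was 0.19 (adjusted p = 0.00364). The estimates of *DTX2* and *RBPJ* were thus smaller with the offset and larger without control replicate 1, and the part of GC content in them was not tested further.

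Both *DTX2* and *RBPJ* have pseudogenes of like sequence. The counting left out reads that map to several places, so their counts are uncertain in level. *DTX2P1* had 0 to 3 counts per library, and the *RBPJ* pseudogenes *RBPJP2*, *RBPJP5*, *RBPJP6* and *RBPJP7* had 0.

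**Figure D2:**
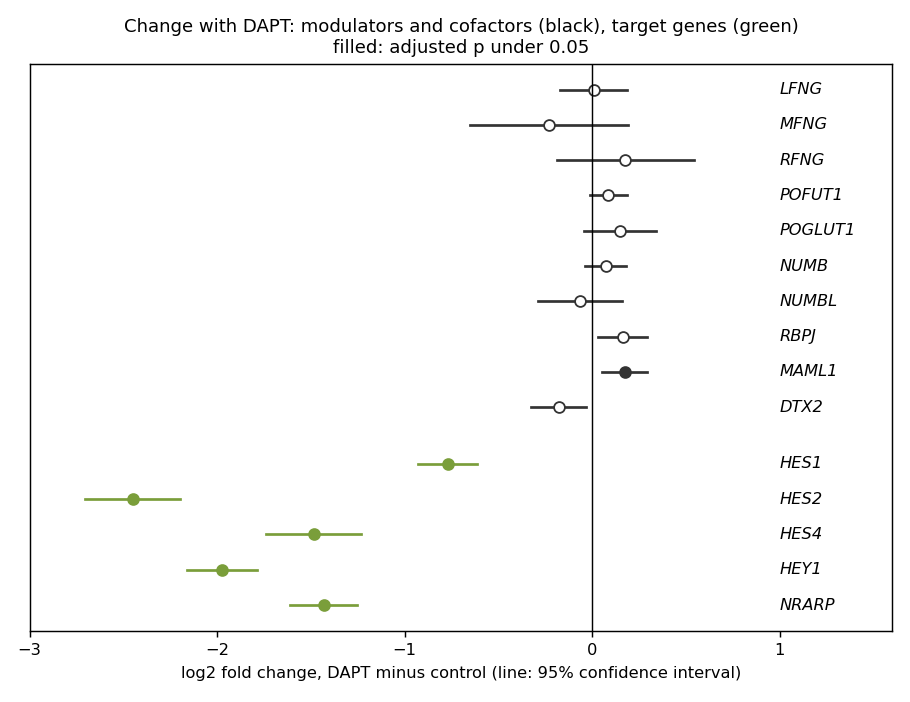
Log2 fold change (DAPT minus control, horizontal axis) with its 95% confidence interval (line) for the 10 genes (black) and 5 Notch target genes (green), from 3 libraries per group. Filled points have an adjusted p under 0.05: *MAML1* at 0.17 and all 5 target genes, between -0.77 and -2.45.

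The target genes gave the scale of the response in the same libraries. *HES1*, a transcriptional repressor and direct Notch target, had 42.5, 50.3 and 48.2 CPM in the controls and 27.9, 27.2 and 27.3 CPM with DAPT, a log2 fold change of -0.77 (SE 0.077, adjusted p = 7.2e-08). *HEY1*, of the related Hairy family, had 32.6, 35.2 and 36.0 CPM in the controls and 9.61, 8.04 and 8.61 CPM with DAPT, a change of -1.98 (adjusted p = 2.03e-13). The groups were far apart for both. The median size of the log2 fold change was 1.48 over the 5 target genes and 0.15 over the 10 modulators and cofactors, against 0.18 over all tested genes.

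Levels were compared between genes per kilobase of exon, since longer genes gather more reads. The length was that of all annotated exon bases of a gene, merged, and the order of genes can depend on this choice. In the controls *POFUT1* led with 33.9 ± 0.798 CPM per kilobase, and *LFNG* followed with 31.2 ± 1.81 CPM per kilobase (SD, n = 3). The libraries of this pair overlapped. *POFUT1* has 6417 exon bases and a longest transcript of 5385, and *LFNG* has 3486 and 2445. The order of the pair depends on which length is used. *DTX2* had 11.0 ± 0.967, *MAML1* 9.73 ± 0.0932, *NUMB* 8.68 ± 0.16, *RFNG* 7.40 ± 1.73 and *RBPJ* 5.97 ± 0.429 CPM per kilobase. Within these, *RFNG* could not be separated from *NUMB* or from *RBPJ*, as its controls ran from 6.07 to 9.36 CPM per kilobase. *NUMBL* (2.71 ± 0.437) and *POGLUT1* (2.29 ± 0.231) overlapped, and *MFNG* was lowest with 1.08 ± 0.13 CPM per kilobase. Among all tested genes *POFUT1* stood at the 91.2nd percentile of level per kilobase and *MFNG* at the 18.2nd.

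By merged exon length, the order of the levels per kilobase changed with DAPT for a neighbouring pair above the spread of its libraries. *DTX2* was at 9.96 to 11.9 CPM per kilobase in the controls, above *MAML1* at 9.62 to 9.80. With DAPT, *MAML1* was at 10.7 to 11.2 CPM per kilobase, above *DTX2* at 9.38 to 10.2. This exchange was noticed in the data and was not tested. It depends on the length used. *DTX2* was divided by 5042 exon bases while its longest transcript has 2769, and for *MAML1* these lengths are 5967 and 5748. By the same merged exon length, *POFUT1* and *LFNG*, which overlapped in the controls, were apart with DAPT, at 35.1 to 37.0 and 26.7 to 33.8 CPM per kilobase.

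**Figure D3:**
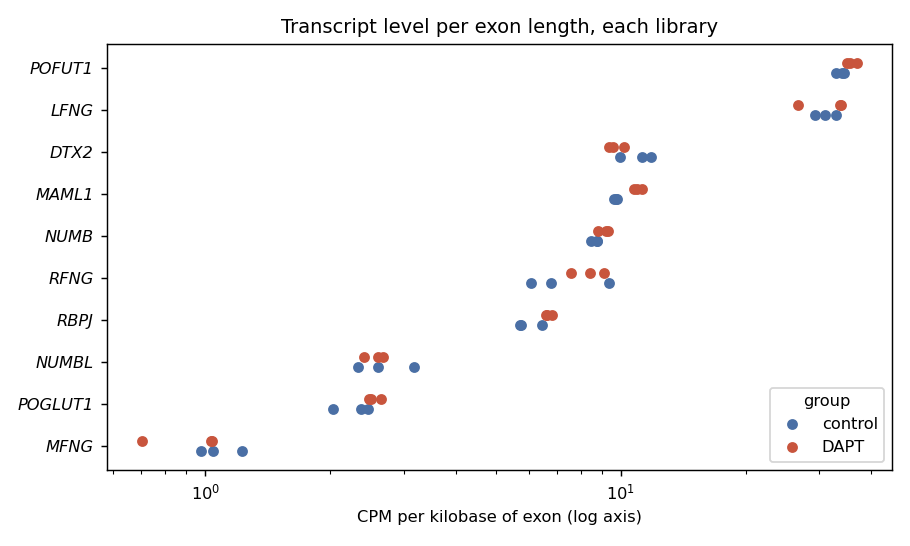
CPM per kilobase of exon (log axis) for the 10 genes, ordered by their mean over all 6 libraries, with 1 point per control (blue) and DAPT (red) library. *POFUT1* and *LFNG* lie between 26.7 and 37.0 CPM per kilobase in all libraries, and *MFNG* between 0.705 and 1.22.

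Ratios between related genes within a library do not depend on the scaling between libraries. Their sizes depend on the merged exon lengths, while their log2 differences between the groups do not. *LFNG* was 4.28 times as abundant as *RFNG* per kilobase in the controls and 3.74 times with DAPT, by the mean of log ratios. *MFNG* was at 0.148 of *RFNG* in the controls and 0.109 with DAPT, the largest log2 difference of the 6 ratios (-0.44). The ratio of *LFNG* to *MFNG* was 28.9 and 34.2, and that of *POFUT1* to *POGLUT1* was 14.9 and 14.1. *NUMBL* was at 0.309 of *NUMB* in the controls and 0.281 with DAPT. The ratio of *MAML1* to *RBPJ* was 1.63 and 1.64, a log2 difference of 0.01. In 2-sided exact permutation tests over the 6 libraries, none of the 6 ratios examined passed (p = 0.3 to 0.9, adjusted p = 0.6 to 0.9), and 3 libraries against 3 cannot give a p below 0.1.

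The wider machinery around these genes was read from 5 lists of 73 further genes, of which 70 were tested. In all, 20 were called, 13 higher and 7 lower, or 28.6% against 35.2% of all tested genes. None changed 2-fold, and the median log2 fold change was 0.03. Without control replicate 1, 28 genes of these lists were called, 19 of them shared with the 20, where 37.1% of all tested genes were called. The lists were written with earlier results of these data known.

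Among 12 other genes of Notch glycosylation and of the supply of GDP-fucose, 1 was called (8.33%, against 35.2% of all tested genes). *GXYLT2*, which adds xylose to the glucose set by POGLUT1, fell from 13.7 ± 1.43 to 10.6 ± 0.983 CPM (log2 fold change -0.36, adjusted p = 0.0163). It was not called with DESeq2, without control replicate 3 or without DAPT replicate 2. The relatives of *POGLUT1* in this list were not called, *POGLUT2* with a log2 fold change of 0.15 (adjusted p = 0.179) and *POGLUT3* with -0.05 (adjusted p = 0.542). The median log2 fold change of the list was -0.05.

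Of 17 endocytic and ubiquitin regulators, 15 were tested, and 3 rose (20% called, against 35.2% of all tested genes). *DTX3L*, a Deltex relative, rose from 179.0 ± 15.5 to 243.7 ± 14.9 CPM (log2 fold change 0.44, adjusted p = 1.05e-05), with 196.4, 173.8 and 166.8 CPM in the controls and 260.4, 239.0 and 231.6 CPM with DAPT. *NEDD4L*, a ubiquitin ligase of the NEDD family, rose by 0.15 on the log2 scale (adjusted p = 0.0231), a call lost without control replicate 2 or DAPT replicate 1. *MIB1*, the ligase that acts on Notch ligands, changed by 0.14 (adjusted p = 0.0488). Its call held in only 4 of the 15 alternatives, and it is named after its values were seen. Within the Deltex family the log2 fold changes were -0.18 for *DTX2*, 0.10 for *DTX3*, 0.44 for *DTX3L* and -0.08 for *DTX4*. *DTX1* had 0 counts in all 6 libraries, where 3 counts would be 0.184 to 0.244 CPM.

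Of the 5 lists, the coactivators had the largest share of called genes, 5 of 9 tested (55.6%, against 35.2% of all tested genes). *CREBBP* and *EP300*, the histone acetyltransferases that MAML proteins bring to the complex, rose by 0.48 (adjusted p = 1.46e-06) and 0.33 (adjusted p = 5.81e-05) on the log2 scale. *CREBBP* had 106.1, 117.9 and 120.7 CPM in the controls and 172.4, 153.5 and 155.5 CPM with DAPT. *EP300* had 92.2, 93.8 and 98.2 CPM in the controls and 122.8, 113.1 and 119.9 CPM with DAPT. The acetyltransferase gene *KAT2A* fell by 0.21 on the log2 scale (adjusted p = 0.00496), while *KMT2D*, a histone methyltransferase, and *KAT2B*, named after their values were seen, rose by 0.27 and 0.22. *KAT2B* was not called without control replicate 1 (adjusted p = 0.0623) and in 5 other alternatives. The relatives of *MAML1* had negative estimates that were not called, -0.18 for *MAML2* (adjusted p = 0.084) and -0.65 for *MAML3* (adjusted p = 0.154). *MAML3* was low, with 1.21 ± 0.312 CPM in the controls. *RBPJL*, the relative of *RBPJ*, had at most 1 count in a library.

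**Figure D4:**
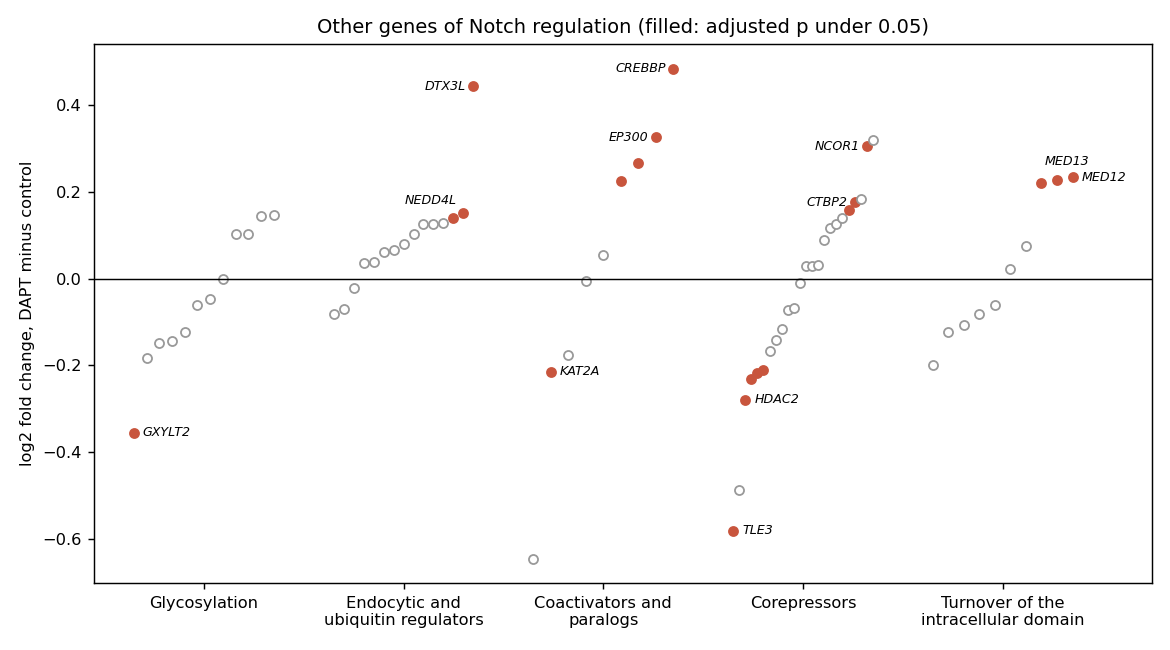
Log2 fold change (DAPT minus control, vertical axis) of the 70 tested genes of the 5 wider lists, each list in order of its values. Filled points have an adjusted p under 0.05, 20 genes in all, from *TLE3* at -0.58 to *CREBBP* at 0.48.

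Of 24 corepressor genes, 5 fell and 3 rose (33.3% called, against 35.2% of all tested genes). *TLE3*, a Groucho-type corepressor, fell most, from 83.3, 89.0 and 88.9 CPM in the controls to 59.1, 58.2 and 57.2 CPM with DAPT (log2 fold change -0.58, adjusted p = 3.7e-08). *HDAC2*, a histone deacetylase, fell by 0.28 (adjusted p = 0.000161). *NCOR1*, a nuclear receptor corepressor that also binds RBPJ complexes, rose by 0.31 (adjusted p = 6.22e-05), and *CTBP2* rose by 0.18 (adjusted p = 0.00979). *HDAC1*, *KDM1A* and *TBL1XR1* fell by 0.22, 0.23 and 0.21, and *KDM5A* rose by 0.16 with a call that was lost in 4 alternatives, all 4 genes being named after their values were seen. *SPEN*, a corepressor that binds RBPJ directly, was not called (log2 fold change -0.14, adjusted p = 0.0563).

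Among 10 genes for the turnover of the intracellular domain, 3 rose (30%, against 35.2% of all tested genes called). The genes of the Mediator kinase module in this list are *MED12*, *MED13*, *CDK19*, *CDK8* and *CCNC*. Their log2 fold changes were 0.23 for *MED12* (adjusted p = 0.00516), 0.23 for *MED13* (adjusted p = 0.00332) and 0.22 for *CDK19* (adjusted p = 0.0115, named after its values were seen and not called without control replicate 2). *CDK8* (0.02, adjusted p = 0.824) and *CCNC* (-0.08, adjusted p = 0.378) were not called. *FBXW7*, the ligase that recognizes the intracellular domain, had a log2 fold change of 0.07 (adjusted p = 0.506).

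**Figure D5:**
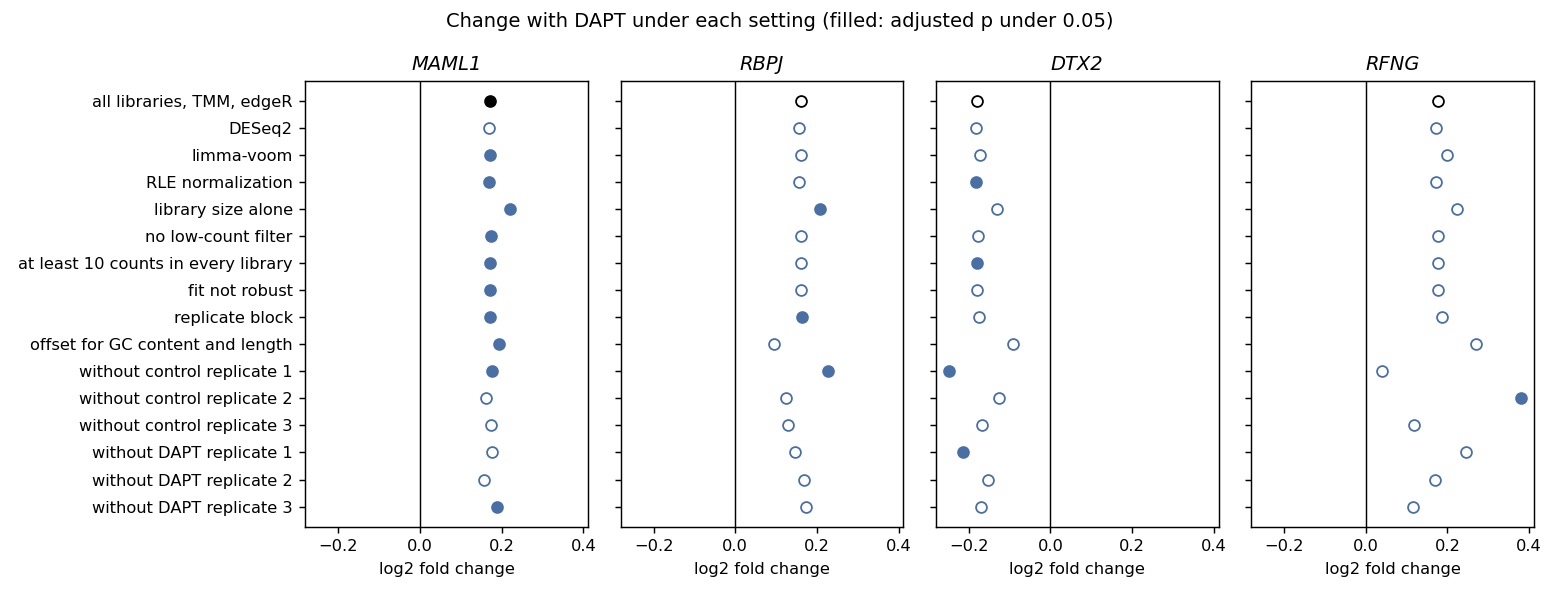
Log2 fold change (DAPT minus control, horizontal axis) of *MAML1*, *RBPJ*, *DTX2* and *RFNG* with all libraries (black) and under 15 alternatives (blue). Filled points have an adjusted p under 0.05, and the signs stayed the same throughout, while *RFNG* moved between 0.04 and 0.38 when a control was left out.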

How the data were processed

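Single-end RNA-seq reads of 3 control and 3 DAPT libraries were trimmed by the authors with Trim Galore, mapped with HISAT2 to GRCh38 and counted per Ensembl gene (release 96) on the sense strand with featureCounts 1.6.3, per the file headers. The deposited values are raw read counts. Reads that map to several places or overlap several genes were not counted. The submitters' processing notes name HTSeq and DESeq2, and the methods of the study name edgeR. Symbols were found for 58472 of 58884 identifiers. Counts were filtered by group (minimum count 10), scaled by TMM and tested with edgeR 4.0.16 in R 4.3.3 (robust quasi-likelihood fit), with Benjamini-Hochberg adjustment over 15001 genes and calls at an adjusted p under 0.05. Alternatives used DESeq2 1.42.0, limma-voom (limma 3.58.1), other scalings and filters, a block for replicate number, an offset for GC content and length (5 spline degrees of freedom) and each library left out. The script was tested on simulated data with 2-fold changes, which cannot show how well changes as small as those of the 10 genes are found. CPM floors of 3 counts cover counting error only. The genes named were the 10 members, 5 targets, and at most 2 higher and 2 lower called genes per wider list with the largest log2 fold change and a mean of at least 1 CPM. Exceptions and family relatives are named beside their values. The members and lists were chosen with earlier results of these data known.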

Additional observations from a re-analysis of the deposited data

How the results depend on the processing

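With DESeq2, 0 of the 10 genes were called (0 higher), and 2 higher and 1 lower had an unadjusted p under 0.05 (36.7% of all tested genes). Scaling by RLE gave 2 calls (1 higher, 1 lower), as did keeping only genes with 10 or more counts in each library (1 higher, 1 lower), since *DTX2* then passed. Library size alone gave 3 calls, 3 higher, and moved the share of higher genes among all calls from 48.7% to 61.5%, with a median log2 fold change of 0.0564. Leaving out each library in turn gave 0 to 3 calls, 0 to 2 of them higher and 0 to 1 lower. Libraries of the same replicate number had correlations of deviations of 0.0173, 0.0252 and 0.00382, which cannot show whether the cultures were paired. The DAPT library with the highest correlation had the same number for control replicates 1 and 2, and number 1 for control replicate 3. With a replicate block 2 genes were called, 2 higher, as *RBPJ* passed (adjusted p = 0.044). The block moved no other call among the 10. Over all genes tested in each setting, 26.5% were called with DESeq2, 35.4% with RLE and 37.1% with 10 or more counts in each library. The share was 37.3% with library size alone, 35.3% with the replicate block and 27.2% to 37.1% with a library left out. *LFNG* changed sign with limma-voom (-0.000759), and without single libraries its lowest and highest values were -0.0479 and 0.114, and those of *NUMBL* -0.166 and 0.0537. Of the 20 called genes of the wider lists, 14 were called in every alternative. Called genes numbered 16 to 29 in the wider lists and 3974 to 6000 over all genes, each within 1.5 times the reported 20 and 5281. Without single libraries each ratio moved by less than the larger SD of its groups, but the log2 difference changed sign for *POFUT1* to *POGLUT1* (-0.0729, or 0.0171 without control replicate 3) and *MAML1* to *RBPJ* (0.00642, or -0.0498 without control replicate 1 and -0.0172 without DAPT replicate 2). The cause of these shifts was not tested. Depth limits *MFNG* most.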

Other observations

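Over all tested genes, 7700 log2 fold changes were positive and 7301 negative. Of the 10 modulators and cofactors, 7 had positive and 3 negative log2 fold changes, and the signs were the same under TMM, RLE and library-size scaling. Of the 12 genes of glycosylation 4 were positive and 8 negative, and of the 15 endocytic and ubiquitin regulators 12 were positive and 3 negative, with 8 whose libraries did not overlap (46.3% of all tested genes). The counts were 5 positive and 4 negative for the coactivators, 12 and 12 for the corepressors, and 5 and 5 for the turnover genes. These signs were not tested. Over all tested genes the median log2 fold change fell from 0.0562 in the lowest to -0.0427 in the highest quartile of GC content, and it rose from -0.0559 in the shortest to 0.0548 in the longest quartile of transcript length. *MAML1* has transcripts of up to 5748 bases and *POGLUT1* of up to 3598 bases, and the part of length in their values was not tested beyond the offset described above.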
